A study of Mus musculus with 6 samples.

Results

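The genes described here are 46 listed components of tight and gap junctions: 21 claudins, 3 occludin-type membrane proteins, 5 junctional immunoglobulin proteins, 5 proteins of the cytoplasmic plaque, 4 polarity proteins and 8 connexins. A probe was taken as a member's when its accession matched that gene in RefSeq under its present or an older symbol. This gave 61 probes for the 46 genes, of 26055 probes for 19751 genes that could be named on the array. The arrays compare 3 TAp73 knockout mice (TAp73 KO, below KO) with 3 wild types (TAp73 WT, below WT); all 6 were C57BL/6J males of 10 weeks, and RNA of the whole testis of each went onto 1 Agilent array with a single dye. TAp73 names the long forms of the transcription factor p73, which carry its transactivation domain. The construction of the knockout allele and the exons it lacks are not given in these sources. Nothing in the labels says whether the mice were littermates, and p-values measure the spread between these 6 animals.

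Sertoli cells, the somatic cells that nurse the germ cells, join one another by tight junctions near the base of the seminiferous tubule and so form the blood-testis barrier, behind which meiosis and sperm maturation take place. Claudins and occludin span the membrane and seal the gap between cells, junctional adhesion molecules sit beside them, and zonula occludens proteins and cingulin tie them to the actin cytoskeleton. Connexins form gap junction channels, through which Sertoli cells exchange small molecules with each other and with germ cells; endothelial cells and Leydig cells have junctions of the same families. Because the samples are whole testis, fewer cells of a type and less RNA per cell cannot be told apart.

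Signals are the scanner's background-subtracted processed signals in arbitrary units. For comparison they were taken to log2 and scaled by taking away the 75th percentile of the array; the WT percentiles were 0.26 higher on the log2 scale, so a probe with equal signal in both groups has a scaled difference of about that size. The scanner software called 74.4% to 84.4% of an array's features well above background, and 1.59% to 4.45% saturated. KO replicate 1 stood apart from the others, at -66.2 on the first principal component, where the other 5 arrays lay between -4.91 and 30.8. The Trp73 probe A_52_P193555 read 17.2, 4.81 and 5.17 in KO replicates 1 to 3, against 605, 548 and 587 in WT replicates 1 to 3. Probe A_55_P1988133 read 39.1, 28.4 and 23.1 in the KO, against 378, 308 and 301 in the WT. The brightest Trp73 probe, A_52_P410636, fell only 1.99-fold, from 1077, 975 and 1061 in the WT to 566, 371 and 394 in the KO. Each probe was lower in every array labelled knockout than in any labelled wild type. Which of these probes fall inside the deletion is not stated. A series value table of the same arrays carries the opposite labels, and under those every direction below would turn round.

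Of the 46 genes, 39 had a probe that could be tested, and 38 had one measured on all 6 arrays; each of these is represented by its brightest such probe. Cldn10 rose in the KO, Cgn and F11r fell, and the other 35 did not pass an adjusted p of 0.05 (limma, Benjamini-Hochberg over 31801 tested probes). Over all 16947 genes measured in the same way, 0.218% were called higher, 3.53% lower and 3.75% in either direction, beside 2.63% and 5.26% of the junction genes, which are 1 and 2 genes. The median difference over the 38 genes was -0.06 on the log2 scale, from -0.97 to 1.06, and 20 of them differed by less than 0.2; the median over all measured genes was 0.05. KO and WT arrays did not overlap for 7 junction genes that were higher in the KO (18.4%, against 19.2% of all genes) and for 7 that were lower (18.4%, against 16.0%). At an unadjusted p of 0.05, 5 junction genes were higher (13.2%, against 12.0% of all genes) and 6 lower (15.8%, against 13.6%). Counted over all 31801 tested probes, 0.248% were called higher, 2.64% lower and 2.88% in either direction; KO arrays lay above all WT arrays for 18.6% of probes and below them for 13.1%, and 12.3% were higher and 10.9% lower at an unadjusted p of 0.05. The shares of junction genes that separate the groups are near those of all genes.

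**Figure D1:**
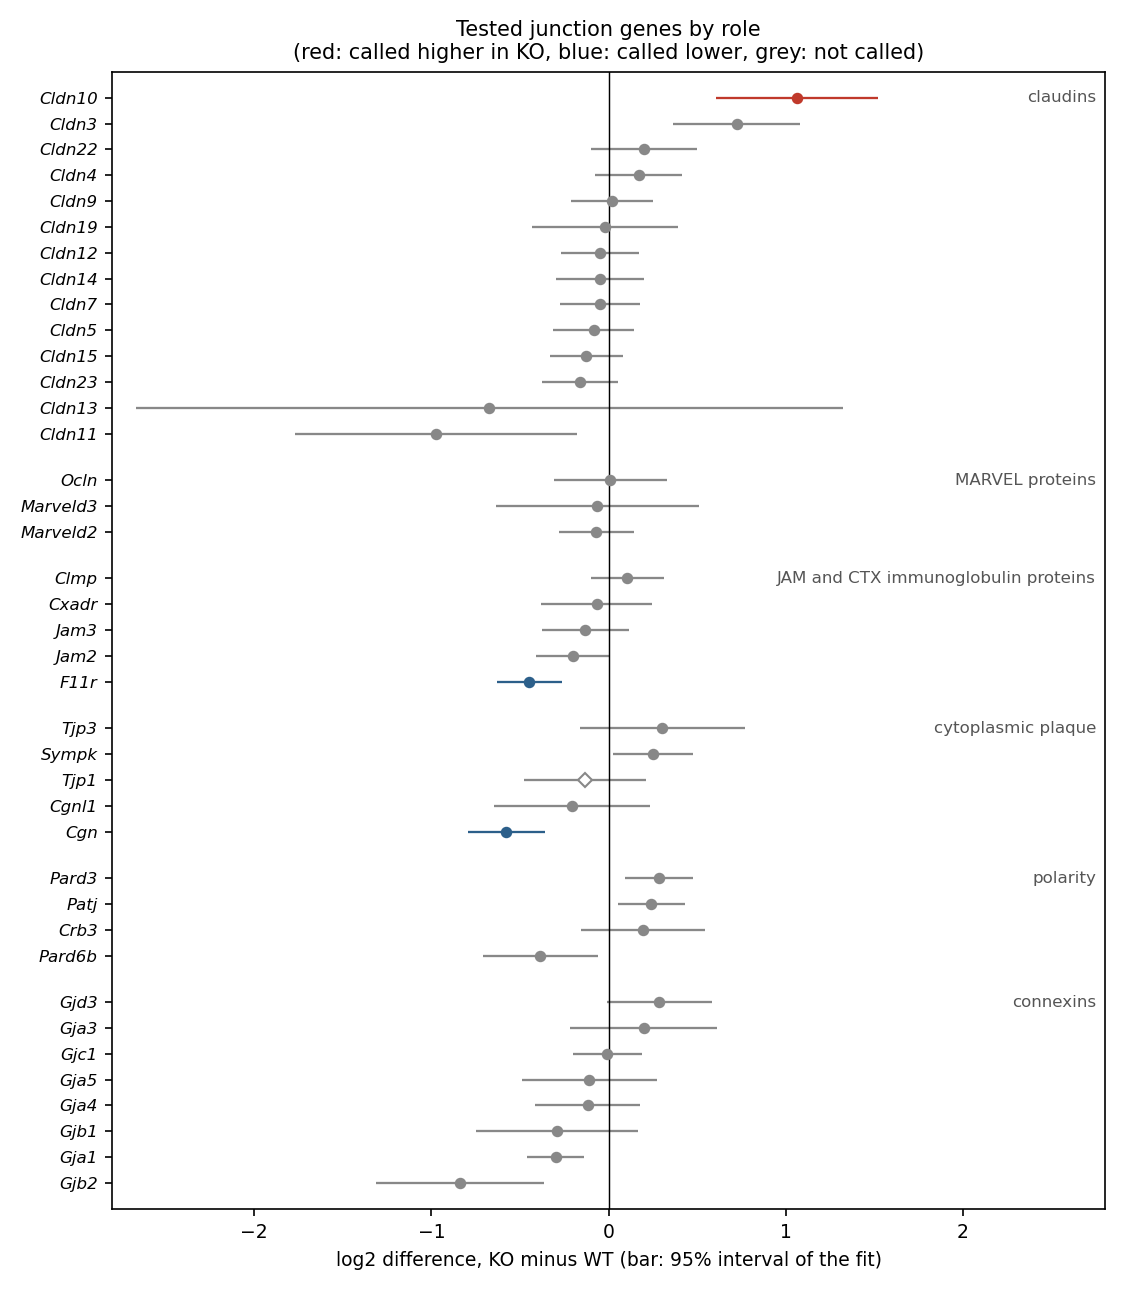
Log2 difference, KO minus WT, of the 39 tested junction genes, grouped by role, with the 95% interval of the limma fit (3 arrays per group); the open diamond is Tjp1, which lacks 1 WT value. Cldn10 (1.06) is the only gene called higher, F11r (-0.45) and Cgn (-0.58) are called lower, and Cldn13 has the widest interval, from -2.67 to 1.32.

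Claudins form the strands of the tight junction, and some of them make ion-selective pores. Of 21 listed, 14 were measured, of which 1 rose, 0 fell and 13 did not pass, with a median difference of -0.05. Cldn10, a pore-forming claudin best known from the kidney and secretory epithelia, read 120, 101 and 159 units in KO replicates 1 to 3, against 72.7, 76.9 and 64.7 in WT replicates 1 to 3. All 3 KO values lay above all WT values, before and after scaling. The scaled level averaged -5.19 ± 0.35 in the KO and -6.25 ± 0.16 in the WT (SD, n = 3 each), a 2.09-fold rise (log2 difference 1.06, SE 0.19, limma adjusted p = 0.0455). The probe is dim. With normexp background correction and quantile normalization the difference was 0.53 (adjusted p = 0.0699). With normexp and the 75th percentile scaling it was 1.21 (adjusted p = 0.537), and there no tested probe of any gene was called. RefSeq lists 2 starts of Cldn10 on chromosome 14, and 1 probe measured the gene, so its transcripts were not measured apart.

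Cldn3, which in mouse Sertoli cells appears at newly forming junctions and depends on androgen, read 3407, 2714 and 3282 units in the KO, against 2517, 2503 and 1832 in the WT. Every KO value again exceeded every WT value. Its 1.65-fold difference (log2 0.72, SE 0.15, 95% interval 0.37 to 1.08) did not pass the threshold, with a limma adjusted p of 0.0628. The adjusted p was 0.0442 when only probes well above background on all 6 arrays were tested, and 0.0241 with a trended robust variance. It was 0.0789 with slide as a block, 0.121 with no filter on dim probes and 0.191 with a replicate block. With 1 array left out it was 0.0956 to 0.19.

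Cldn11 is the principal claudin of the Sertoli cell barrier, and mice without it are sterile. It read 17571, 6067 and 14559 units in KO replicates 1 to 3, against 29695, 27299 and 24790 in WT replicates 1 to 3. All KO values were below all WT values, and KO replicate 2 was the lowest by far. The log2 difference of -0.97 (SE 0.33, 95% interval -1.77 to -0.18) did not pass (limma adjusted p = 0.164). Without KO replicate 2 it was -0.57 (adjusted p = 0.106), and without KO replicate 1 it was -1.18 (adjusted p = 0.112).

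Cldn13, a claudin of mice with no human counterpart, read 168, 1161 and 1144 units in KO replicates 1 to 3, against 1450, 1053 and 1014 in WT replicates 1 to 3. Only KO replicate 1 was low. The other KO arrays lay within the range of the WT arrays on the signal scale. After scaling, at -1.83 and -1.93, they lay above the WT arrays, at -1.97, -2.30 and -2.42. The difference was -0.67 (SE 0.82, limma adjusted p = 0.631) and had the opposite sign, 0.35, without KO replicate 1 (adjusted p = 0.22). In RefSeq, Cldn13, Cldn4 and Cldn3 follow each other in this order on chromosome 5, with 1 other coding gene between the first pair. Their differences were -0.67, 0.17 and 0.72, with none called.

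**Figure D2:**
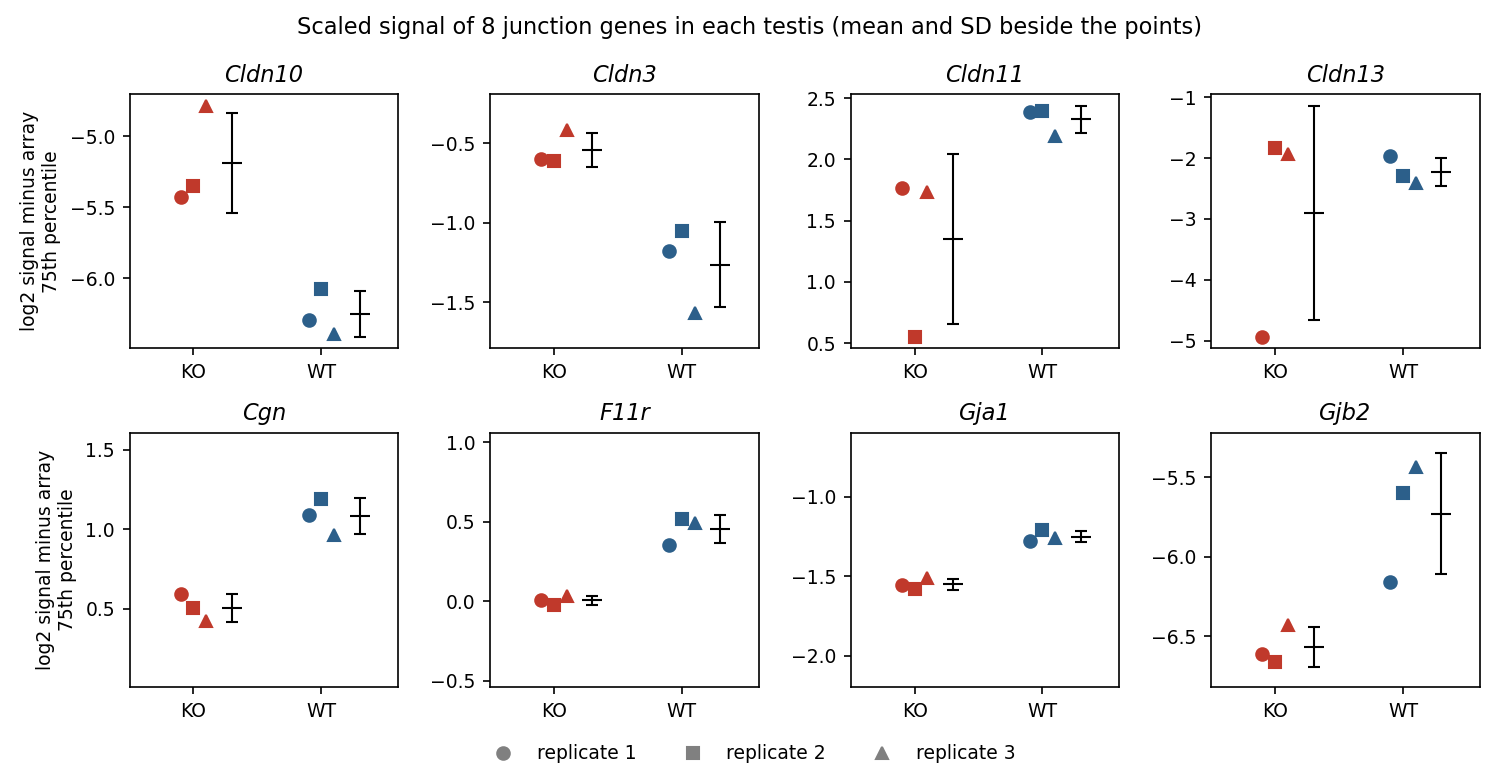
Scaled level (log2 signal minus the array's 75th percentile) of 8 junction genes in each of 3 KO (red, left) and 3 WT (blue, right) testes, with marker shape giving the replicate and the bar the mean and SD. Cldn13 is low in KO replicate 1 alone and Cldn11 lowest in KO replicate 2. Cgn, F11r and Gja1, and Cldn10 only just, separate the groups by more than the spread within each.

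Cldn5, the main claudin of endothelium, read 3113, 2721 and 2740 units in the KO, against 4121, 3537 and 3250 in the WT. After scaling the groups overlapped, with a difference of -0.08 (95% interval -0.31 to 0.14, limma adjusted p = 0.594). The other 9 tested claudins, Cldn4, Cldn7, Cldn9, Cldn12, Cldn14, Cldn15, Cldn19, Cldn22 and Cldn23, had differences between -0.16 and 0.20 and none was called. The widest of their 95% intervals, that of Cldn19, ran from -0.43 to 0.39. Cldn1, Cldn2, Cldn6, Cldn8, Cldn16, Cldn17 and Cldn18 were too dim to be tested. Cldn1, Cldn6, Cldn8, Cldn16 and Cldn18 were not well above background on any array, and Cldn2 and Cldn17 were so on 1 KO and 1 WT array each.

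Occludin and its relatives cross the membrane 4 times and line the same strands. Ocln read 379, 254 and 281 units in the KO, against 435, 336 and 310 in the WT, and the groups overlapped after scaling. The difference was 0.01 (95% interval -0.31 to 0.33, limma adjusted p = 0.968). Its second probe gave 0.18. Marveld2, tricellulin, which seals the points where 3 cells meet, and Marveld3 differed by -0.07 and -0.06, neither called; a second Marveld3 probe gave 0.54 (adjusted p = 0.314).

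Junctional adhesion molecules are immunoglobulin proteins that bind one another across the cell contact. F11r, JAM-A, read 5197, 4072 and 4471 units in KO replicates 1 to 3, against 7270, 7426 and 7603 in WT replicates 1 to 3. The KO arrays were close to each other after scaling and all lay below the WT arrays. The scaled level averaged 0.01 ± 0.03 in the KO and 0.45 ± 0.09 in the WT (SD, n = 3 each), a 1.36-fold fall (log2 difference -0.45, SE 0.08, limma adjusted p = 0.04). F11r was not called with median scaling (-0.39, limma adjusted p = 0.0556) or with normexp (-0.44, adjusted p = 0.537). With normexp and quantile normalization it was called (-0.44, adjusted p = 0.0347).

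Jam2, JAM-B, which Sertoli cells carry and which binds JAM-C on spermatids in the mouse, was at 1.02, 0.94 and 0.92 on the scaled log2 scale in the KO, against 1.05, 1.15 and 1.29 in the WT. The groups did not overlap, but the difference of -0.20 (95% interval -0.41 to 0.01) did not pass (limma adjusted p = 0.225). Jam3, JAM-C, which mouse spermatids need to polarize, read 17406, 12264 and 11886 units in the KO, against 19262, 16032 and 18435 in the WT, and overlapped after scaling (-0.13, adjusted p = 0.454). Cxadr, the coxsackie and adenovirus receptor, read 162, 144 and 130 units in the KO, against 160, 189 and 198 in the WT, and its relative Clmp differed by 0.11; neither was called. The Cxadr difference was -0.07 (95% interval -0.38 to 0.24), and 0.43 under normexp background correction (adjusted p = 0.548). With normexp and quantile normalization it was -0.03 (adjusted p = 0.905).

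The plaque proteins lie under the membrane. Cgn, cingulin, which links zonula occludens proteins to actin and myosin, read 7796, 5870 and 5861 units in KO replicates 1 to 3, against 12135, 11836 and 10597 in WT replicates 1 to 3. Every KO value was below every WT value. The scaled level averaged 0.51 ± 0.09 in the KO and 1.08 ± 0.11 in the WT (SD, n = 3 each), a 1.49-fold fall (log2 difference -0.58, SE 0.09, limma adjusted p = 0.0328). Cgn was not called with normexp (-0.59, limma adjusted p = 0.537) or with normexp and quantile normalization (-0.61, adjusted p = 0.059). Its paralog Cgnl1, paracingulin, differed by -0.21 (SE 0.18, adjusted p = 0.508); whether the paralogs differed from each other was not tested.

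Tjp1, ZO-1, the scaffold that binds claudins directly, read 5073, 3698 and 3277 units in the KO, against 5315 and 5034 in the WT; its spot on WT replicate 3 was marked as an outlier by the scanner software and left out of the fit. The difference was -0.13 (95% interval -0.48 to 0.21, limma adjusted p = 0.576) and the groups overlapped. Tjp3, ZO-3, differed by 0.30 (adjusted p = 0.362). Sympk, symplekin, is a protein of tight junction plaques and of messenger RNA polyadenylation. It read 55777, 46858 and 57454 units in the KO, against 57373, 50575 and 52269 in the WT. The mean signals were 53363 in the KO and 53406 in the WT, and the groups overlapped before scaling. After scaling the difference was 0.25 (limma adjusted p = 0.188), with a spot saturated on 1 KO and 1 WT array. That difference was 0.10 under quantile normalization. The scaling percentiles differed by 0.26, and the part of the scaling in the Sympk difference was not tested.

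Polarity proteins place the junctions along the cell's axis. Several probes of the same gene disagreed here. Pard3, the scaffold of the PAR complex, was at -2.29, -2.21 and -2.32 in the KO, against -2.48, -2.66 and -2.53 in the WT on the scaled log2 scale for its brightest probe (0.28, limma adjusted p = 0.117), while its other 3 probes gave -0.25 to 0.23. Patj, a scaffold of the Crumbs complex, was at 0.16, 0.30 and 0.13 in the KO, against -0.02, -0.09 and -0.01 in the WT for its brightest probe (0.24, adjusted p = 0.154). Its probe A_55_P2104425 read 41.7, 40.2 and 31 units in the KO, against 118, 62.2 and 63.3 in the WT (-0.79, adjusted p = 0.144), which is the opposite sign. Its probe A_52_P667567 read 5.97, 84.9 and 62.6 units in KO replicates 1 to 3, against 84.1, 77.8 and 85.4 in WT replicates 1 to 3. The difference for that probe was -1.12 (limma adjusted p = 0.527), and 0.17 without KO replicate 1.

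Pard6b, the partner of PAR3 and atypical protein kinase C, read 60.7, 58.1 and 50.3 units in the KO, against 108, 74.8 and 84.1 in the WT. The groups did not overlap, and the difference of -0.39 did not pass (limma adjusted p = 0.17). It was 0.50 under normexp background correction (adjusted p = 0.614) and -0.23 with normexp and quantile normalization (adjusted p = 0.247). Crb3, the membrane protein of the Crumbs complex in epithelia, gave 0.19 and 0.25 with its 2 probes, neither called. Of the 8 junction genes with more than 1 tested probe, all probes had the same sign in 3 and opposite signs in 5.

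Connexins were not called in either direction in limma, 0 of 8, with a median of -0.11. At an unadjusted p of 0.05, 2 were lower and 0 higher, beside 13.6% and 12.0% of all measured genes. Gja1, connexin 43, the principal gap junction protein of Sertoli cells, read 1756, 1383 and 1534 units in the KO, against 2343, 2240 and 2258 in the WT. The scaled values were tight, -1.55 ± 0.03 in the KO and -1.25 ± 0.04 in the WT (SD, n = 3 each), and did not overlap. The difference of -0.30 (SE 0.07, 95% interval -0.46 to -0.14) missed the threshold with a limma adjusted p of 0.0763, and it was between -0.32 and -0.28 with any 1 array left out.

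Gjb2, connexin 26, was at -6.61, -6.66 and -6.43 on the scaled log2 scale in the KO, against -6.16, -5.60 and -5.43 in the WT. No KO value reached a WT value. The 1.79-fold lower level (-0.84, SE 0.20, limma adjusted p = 0.0841) passed only without WT replicate 1 (-1.05, adjusted p = 0.0291). Under normexp background correction with 75th percentile scaling the Gjb2 difference had the opposite sign (0.35, adjusted p = 0.704). With normexp and quantile normalization it kept its sign (-0.35, adjusted p = 0.13). Gja4, connexin 37, an endothelial connexin, read 606, 491 and 456 units in the KO, against 768, 680 and 567 in the WT, and overlapped after scaling (-0.12, 95% interval -0.41 to 0.18, adjusted p = 0.567). The remaining connexins, Gja3, Gja5, Gjb1, Gjc1 and Gjd3, had differences between -0.29 and 0.29, none called. A second Gja5 probe gave 0.69 (adjusted p = 0.353) and read 119 units in KO replicate 1, against 32.5 to 47.6 on the other 5 arrays.

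The 3 calls did not hold with fewer arrays. Without KO replicate 1, the array that stood apart, they were 1.18 for Cldn10 (limma adjusted p = 0.0618), -0.62 for Cgn (0.0562) and -0.45 for F11r (0.0823). With any other single array left out, none of the 3 kept an adjusted p under 0.05, although each kept its sign. The arrays lay on 2 slides, 4 on the first and 2 on the second. With slide as a block the adjusted p was 0.0306 for Cldn10, 0.0796 for Cgn and 0.0802 for F11r. Within the first slide the differences were 0.95, -0.48 and -0.43 (adjusted p of 0.194, 0.388 and 0.408), and in the single pair on the second slide they were 1.29, -0.77 and -0.49, with no test.

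**Figure D3:**
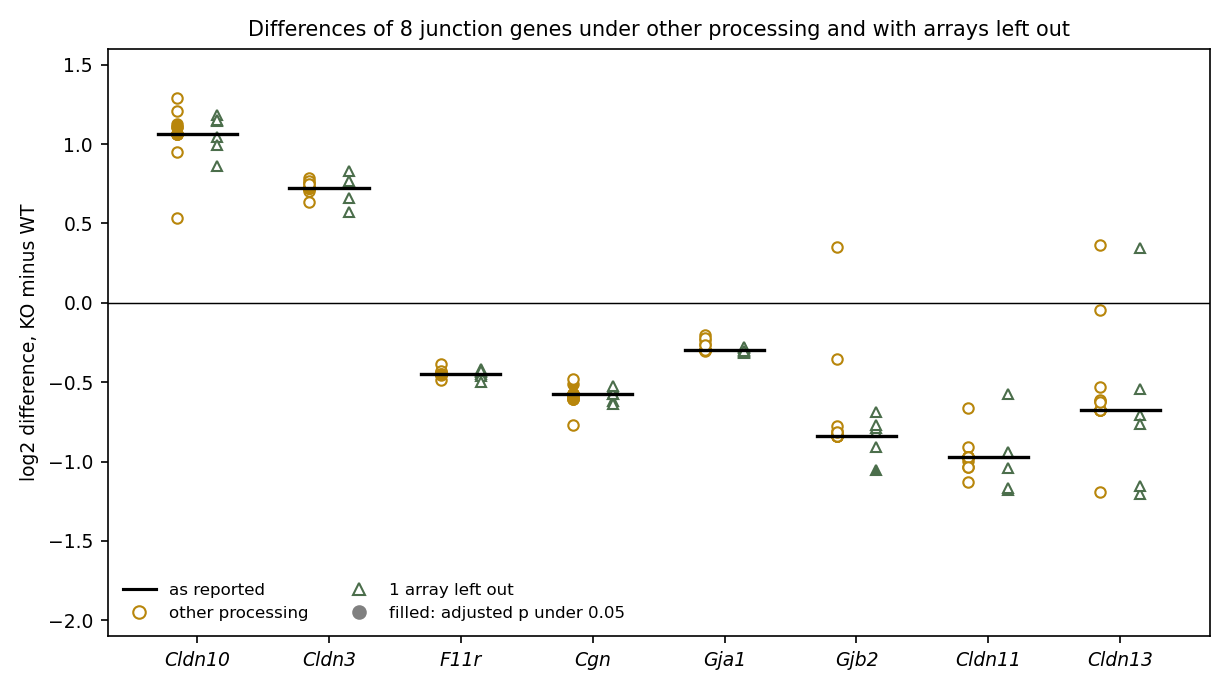
Log2 difference, KO minus WT, of 8 junction genes as reported (black bar), under other processing (circles) and with 1 array left out (triangles); filled symbols passed an adjusted p of 0.05. Cldn10, Cldn3, F11r, Cgn, Gja1 and Cldn11 keep their sign throughout. Gjb2 has the opposite sign under normexp without quantile normalization, and Cldn13 without KO replicate 1 and in the slide 2 pair.

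Other genes of the same junctions were read from further lists. Of 42 measured tight junction and polarity genes outside the 46, 0 rose, 3 fell and 39 did not pass, with a median of 0.03. At an unadjusted p of 0.05, limma gave 2 higher and 6 lower. Of all measured genes, 0.218% were called higher and 3.53% lower, and 12.0% were higher and 13.6% lower by the unadjusted p. Lsr, angulin-1, which recruits tricellulin to the contacts of 3 cells, read 20939, 17400 and 17192 units in the KO, against 40469, 34128 and 34425 in the WT, a 1.64-fold fall (-0.72, SE 0.08, limma adjusted p = 0.0122). Wnk4, a kinase that phosphorylates claudins, fell by 0.48 on the log2 scale (adjusted p = 0.0346). Tmem114, a protein related to claudins, fell by 0.52 (adjusted p = 0.05, just under the threshold before rounding).

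Of 10 further connexins and pannexins, 0 rose and 0 fell in limma, with 3 higher and 1 lower at an unadjusted p of 0.05; Panx3 (0.63, adjusted p = 0.0622) had the smallest p. Of all measured genes, 0.218% were called higher and 3.53% lower, and 12.0% were higher and 13.6% lower by the unadjusted p. Of 26 genes reported to act on the Sertoli cell barrier, 0 rose, 2 fell and 24 did not pass, with a median of -0.12. At an unadjusted p of 0.05, 1 of them was higher and 10 were lower in limma. Those that fell were Tgfb3 (-0.46, limma adjusted p = 0.0401) and Tgfb1 (-0.44, adjusted p = 0.0401), secreted growth factors; Tgfb3 opens the barrier in rat Sertoli cell studies.

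Of 20 measured markers of Sertoli cells, 5 fell, 0 rose and 15 did not pass, where 3.53% of all genes were called lower. Those that fell were Shbg, Sox9, Vim, Aard and Gata1, by 0.44 to 0.97 on the log2 scale. The median of the list was -0.32, and 12 were lower and 0 higher in limma at an unadjusted p of 0.05. Of all measured genes, 13.6% were lower and 12.0% higher by that p. The bright markers Cst12, Amhr2, Cst9 and Clu, differed by 0.01, 0.26, 0.27 and 0.24 and were saturated on at least 1 array. Each array's sum of the scaled levels ran from 80.7 to 93.5 in the KO and from 85.5 to 91.1 in the WT. Over the 16 markers saturated on no array, a selection made after the values were seen, it ran from 29.3 to 31.0 in the KO and from 38.2 to 40.4 in the WT, without overlap.

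Markers of germ cells in and after meiosis lay on the other side of 0 by their medians. At an unadjusted p of 0.05, 12.0% of all measured genes were higher and 13.6% lower in limma. Spermatocyte markers had a median of 0.22, with 0 of 12 called and 5 higher and 0 lower in limma at an unadjusted p of 0.05; their sums ran from 63.2 to 67.7 in the KO and from 53.8 to 57.0 in the WT, without overlap. Round spermatid markers had a median of 0.24, with 0 of 12 called and 6 higher and 0 lower by the unadjusted p; their sums ran from 117 to 131 in the KO and from 105 to 112 in the WT, again without overlap. Elongating spermatid markers had a median of 0.26, with 0 of 12 called and 4 higher and 0 lower by the unadjusted p, and their sums overlapped, at 145 to 191 in the KO and 135 to 152 in the WT. In these lists 2, 5 and 11 of the 12 markers were saturated on at least 1 array. Over the 10 spermatocyte markers saturated on no array, the median was 0.21. Their sums ran from 38.8 to 39.7 in the KO and from 31.9 to 34.3 in the WT. Over the 7 such round spermatid markers the median was 0.13, with sums of 53.2 to 57.1 and 49.0 to 50.8. The 1 such elongating spermatid marker differed by 0.34. These selections were made after the values were seen. The scaling percentiles differed by 0.26, and the part of the scaling in the medians was not tested.

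Of all measured genes, 3.53% were called lower, and at an unadjusted p of 0.05, 12.0% were higher and 13.6% lower in limma. How often sums over other genes keep the groups apart was not tested. Endothelial markers had a median of -0.14, with 2 of 13 called lower. Their summed levels ran from 5.86 to 6.18 in the KO and from 6.80 to 7.13 in the WT, without overlap. Markers of macrophages and leukocytes had a median of -0.22 with 3 of 14 lower and sums of 27.0 to 30.8 in the KO and 27.3 to 27.8 in the WT. Leydig cell markers had a median of -0.29 with 2 of 11 lower and sums of 34.5 to 44.4 in the KO and 38.9 to 51.2 in the WT. Peritubular myoid cell markers had a median of 0.10 with 1 of 9 lower and sums of 34.5 to 37.5 in the KO and 31.4 to 36.4 in the WT. These 3 lists each held 1 saturated probe. Without it, macrophage and leukocyte sums ran from 12.27 to 13.40 in the KO and from 13.43 to 15.29 in the WT, narrowly apart. The Leydig and myoid sums still overlapped, and the myoid median was -0.04. These selections were made after the values were seen. Spermatogonial markers had a median of -0.09 with 0 of 11 called, and 1 higher and 1 lower in limma at an unadjusted p of 0.05; their sums were 12.7 to 13.9 in the KO and 13.0 to 14.8 in the WT. Blood cell markers had a median of -0.31 with 0 of 4 called, 0 higher and 2 lower by the unadjusted p, and sums of 3.63 to 5.82 in the KO and 5.55 to 7.12 in the WT. Markers of epididymal and efferent duct epithelium, a list that holds Cldn4, had a median of 0.03 with 1 of 13 lower. Their sums were 6.78 to 7.85 in the KO and 7.95 to 8.70 in the WT, without overlap. All 17 genes of that list had a probe, and only Lcn5 and Lcn8 were not well above background on any array. No member of these lists was called higher, where 0.218% of all measured genes were. By the unadjusted p in limma, 1 endothelial marker was higher and 3 lower, and 0 macrophage and leukocyte markers were higher and 6 lower. The counts higher and lower were 1 and 3 for Leydig cells, 2 and 1 for myoid cells and 0 and 2 for duct epithelium. The part of these cell types in the differences of the junction genes was not tested.

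**Figure D4:**
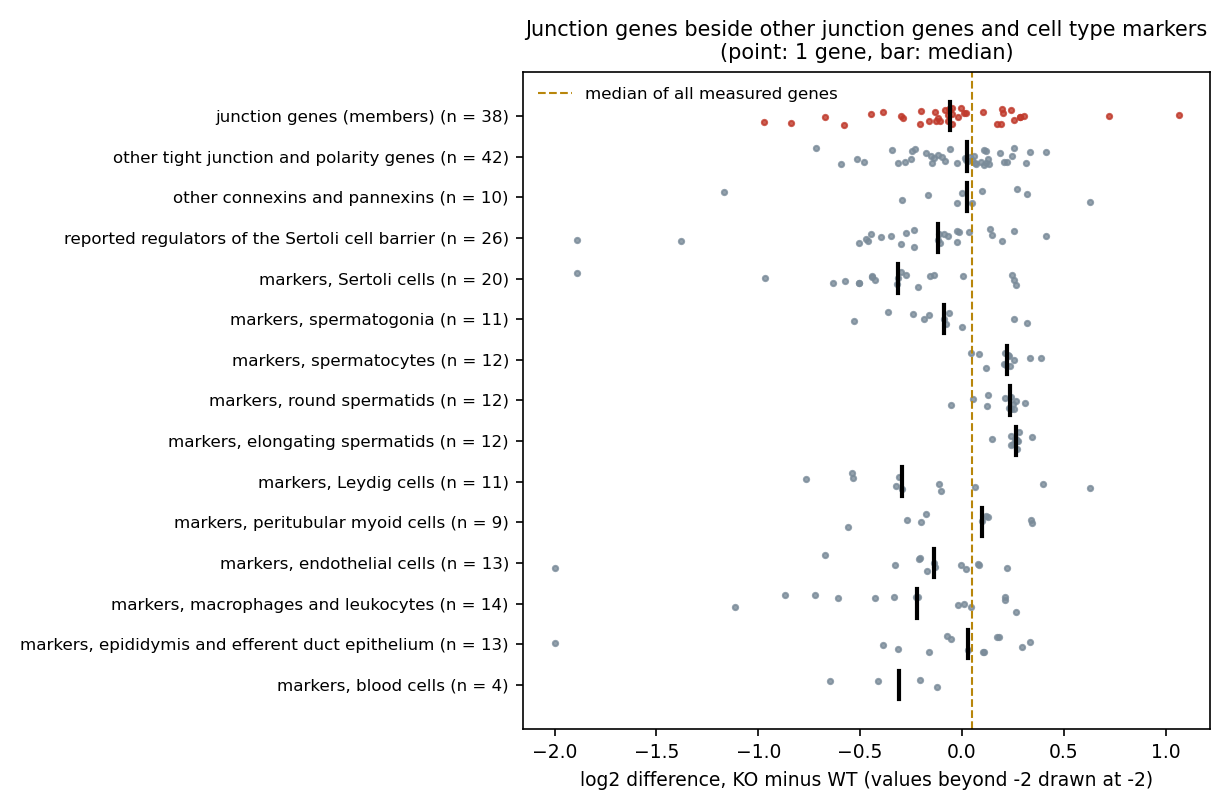
Log2 difference, KO minus WT, of the 38 junction genes (red), of further junction genes and of cell type markers (grey), 1 point per gene, with the median of each list as a bar and the median of all measured genes as a dashed line (values beyond -2 are drawn at -2). The junction genes centre at -0.06, Sertoli cell markers at -0.32 and the 3 germ cell lists of meiosis and after at 0.22 to 0.26. Of these markers, 4 of 20 for Sertoli cells and 2, 5 and 11 of 12 for the germ cell lists were saturated on at least 1 array. Without them, a selection made after the values were seen, the Sertoli median was -0.44 and those of spermatocytes and round spermatids 0.21 and 0.13. For elongating spermatids 1 marker remained, at 0.34.

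The stretches of 250 bases before the annotated starts of the 3 called genes and of Cldn11 are shown because these are the junction genes with a called or the lowest difference (RefSeq, build GRCm38.p6, 5′ to 3′ on the gene's strand). They lie at chr14:118787621-118787870 and chr14:118854700-118854949 (both plus strand) for the 2 starts of Cldn10, at chr1:171437311-171437560 (plus) for F11r, at chr3:94786483-94786732 (minus) for Cgn and at chr3:31149670-31149919 (plus) for Cldn11. Capitals mark matches to CCAAT, the motif of the factor NF-Y, and to GGGCGG, the GC box of SP1, each on either strand; adjoining matches run together.
Cldn10, start 1: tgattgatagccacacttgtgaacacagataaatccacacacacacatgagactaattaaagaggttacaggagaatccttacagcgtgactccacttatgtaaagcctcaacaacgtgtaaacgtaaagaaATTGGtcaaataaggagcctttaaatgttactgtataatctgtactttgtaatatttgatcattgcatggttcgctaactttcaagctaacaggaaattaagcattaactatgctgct
Cldn10, start 2: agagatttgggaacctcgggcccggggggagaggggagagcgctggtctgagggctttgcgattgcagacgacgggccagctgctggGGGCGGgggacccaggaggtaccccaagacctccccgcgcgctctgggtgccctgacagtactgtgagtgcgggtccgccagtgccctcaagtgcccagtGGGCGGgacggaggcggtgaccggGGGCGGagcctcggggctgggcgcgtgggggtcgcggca
F11r: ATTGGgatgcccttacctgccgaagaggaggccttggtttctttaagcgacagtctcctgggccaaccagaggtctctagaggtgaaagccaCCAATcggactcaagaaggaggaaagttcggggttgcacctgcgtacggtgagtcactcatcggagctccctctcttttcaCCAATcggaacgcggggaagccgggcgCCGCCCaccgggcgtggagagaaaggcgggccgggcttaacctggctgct
Cgn: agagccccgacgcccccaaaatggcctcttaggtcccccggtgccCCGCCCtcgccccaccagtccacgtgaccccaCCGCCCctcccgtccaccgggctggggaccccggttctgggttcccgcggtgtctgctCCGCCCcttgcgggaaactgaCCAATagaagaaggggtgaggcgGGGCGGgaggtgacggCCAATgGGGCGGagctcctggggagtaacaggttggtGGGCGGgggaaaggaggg
Cldn11: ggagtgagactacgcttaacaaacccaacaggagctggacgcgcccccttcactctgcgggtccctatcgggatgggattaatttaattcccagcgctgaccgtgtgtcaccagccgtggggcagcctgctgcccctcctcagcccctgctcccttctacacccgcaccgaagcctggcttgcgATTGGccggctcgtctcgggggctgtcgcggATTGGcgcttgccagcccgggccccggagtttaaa
The Cgn stretch holds 6 GC boxes and 2 CCAAT motifs, and that of F11r 1 and 3. Start 1 of Cldn10 has 36.0% G and C, no GC box and 1 CCAAT motif, and start 2 has 72.4% G and C and 3 GC boxes. Cldn11 has 2 CCAAT motifs and no GC box.

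RefSeq promoters could be matched for 35 of the 46 genes, with 54 annotated starts; starts of one gene can overlap. A GC box was found in 55.6% of these 54 stretches and in 32.7% of all 32851 in the table, a CCAAT motif in 31.5% and 33.8%, TATAAA in 11.1% and 12.4%, the GATA-type motif AGATAA in 7.41% and 9.99%, and CAGGTG, an E-box that Snail factors bind, in 29.6% and 17.2%. The decamer of the p53 family response element was found in 13.0% and 7.13%. It was in a stretch of Cldn5, Cldn16, Cldn18, Gja3, Pard3, Patj and Tjp1, and not in those of Cldn10, F11r, Cgn or Cldn11. The member stretches had a median G and C content of 58.6%, against 52.4% for all; its part in the shares of the GC-rich motifs was not tested. These are matches of letters in short windows on either strand.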

How the data were processed

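The authors deposited 6 scanner files with linear spot intensity, made with Feature Extraction 10.7.3.1 on a design of build mm9, per the file headers, and a series value table of intensity, whose normalization the sources do not state. TRIzol extraction and Cy3 labelling are given per the labels' protocols, and limma is named per the submitters' processing notes.

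From the processed signal, control spots and the 163 to 280 spots per array marked as outliers were left out, spots of a probe were averaged on the log2 scale and arrays were scaled by their 75th percentile. Probes were tested if well above background on at least 3 of 6 arrays with at least 2 values per group. KO minus WT was fitted by group alone with lmFit and eBayes of limma 3.58.1 (R 4.3.3, two-sided) and adjusted by Benjamini-Hochberg over 31801 probes; the fit was tested on simulated data. The number of arrays limits the precision. Names came from unversioned accessions in RefSeq (assembly GRCm38.p6).

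The deposited flags for saturation and background are other values of the authors' files, used as filters. Each scanner file matched a value table column of the opposite label (r of 0.83 to 0.99 over probes, and -0.33 to -0.20 with the column of its own label); the scanner files' labels were used, and the table's sign was turned where it served as an alternative. Replicate numbers are shared by both groups in the labels, but same-numbered arrays did not deviate together (r of -0.09 to -0.03), so they were not treated as pairs.

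Some genes are not reported here. The members, lists and alternatives were chosen with earlier results of these data known. Values of every array are given for members that were called, that differed by 1 or more on the log2 scale, that were among the 10 smallest p with groups apart, or that are known from the barrier, gap junctions or vessels of the testis; from other lists the called genes are named, or up to 2 with the smallest p. Alternatives were quantile normalization, median scaling, normexp (offset 50), other filters, slide and replicate as blocks, another variance model, the value table and leaving out each array. Normexp ran on the spots' median signal, a choice made after the data were seen.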

Additional observations from a re-analysis of the deposited data

How the results depend on the processing

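The number of junction genes called higher was 1 and called lower 2. Higher and lower counts were 1 and 1 with median scaling, 0 and 0 with normexp, 0 and 1 with normexp and quantile normalization, 0 and 0 with no filter on dim probes, 2 and 2 when all 6 arrays had to be above background, 1 and 0 with slide as a block, 0 and 0 within slide 1 and 2 and 2 with a trended robust variance (limma). With a replicate block they were 0 and 0, where 1 and 3 of all 16947 genes were called. In these zero counts, 2 to 6 members per direction had an unadjusted p under 0.05. Leaving out 1 array gave 0 to 0 higher and 0 to 1 lower; the 1 gene, without WT replicate 1, was Gjb2. Quantile normalization and the sign-turned value table gave 1 and 2. Over all tested probes, calls were 79 higher and 838 lower, 217 and 868 with quantile normalization, 143 and 569 with median scaling, 0 and 0 with normexp, 91 and 405 with normexp and quantile normalization, 13 and 349 unfiltered, 165 and 1109 with the all-array filter, 15 and 299 with slide as a block, 0 and 0 within slide 1, 1 and 9 with the replicate block, 326 and 1275 with the trended variance, and 7 to 28 and 116 to 420 with 1 array left out.

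The median of the 38 genes, -0.06, was 1.7e-05 under quantile normalization, 0.0064 with median scaling, 0.34 under normexp, 0.0016 within slide 1, -0.12 in the slide 2 pair and -0.0026 in the value table. Over all genes the median was 0.16 under normexp and 0.11 with median scaling, against 0.05. Cldn10, Cgn and F11r kept their sign under all 18 alternatives. The cause of the lost calls was not tested. The probes of Cldn10, Gjb2 and Pard6b are dim, though well above background on all 6 arrays, while those of Cgn and F11r are bright.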

Other observations

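Single arrays carried several of the widest spreads among junction genes. KO replicate 1 was the lowest array by more than 1 on the log2 scale for 534 of 31801 tested probes, KO replicate 2 for 121, KO replicate 3 for 20 and WT replicates 1 to 3 for 185, 7 and 3. Cldn13 and Patj probe A_52_P667567 were among those of KO replicate 1, and Cldn11 among those of KO replicate 2. The following gene was chosen after its values were seen. Sox8, a transcription factor of Sertoli cells, read 34, 177 and 247 units in the KO, against 409, 360 and 305 in the WT (-1.38, adjusted p = 0.318).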
